A study of Homo sapiens with 6 samples.

Results

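The MAP kinase phosphatases are dual-specificity phosphatases that switch off MAP kinases, and 10 of their genes were followed here: DUSP1, DUSP2, DUSP4, DUSP5, DUSP6, DUSP7, DUSP8, DUSP9, DUSP10 and DUSP16. They were taken from the tables by gene name, ignoring case. All 10 were found among 49089 entries of the mouse table and among 63521 entries of each human table, where DUSP9 was listed a second time with identical values and was counted once. RNA was sequenced from LARP7-/- mouse embryonic fibroblasts (MEFs) and wild-type (LARP7+/+) MEFs, from MDA-MB-231 cells with siLARP7 and with siNC, and from HCC1937 cells with siLARP7 and with siNC. The MEFs came from embryos at E13.5 and were used at passages 1 to 6. Both human groups are single, established breast cancer lines, of which HCC1937 carries a mutant BRCA1 gene, and the siRNA was given at 10 ng/ml. The siRNA sequences and the number of embryos behind the MEF cultures are not given in the sources used here. With 1 library in each of the 6 groups there were no replicates, and no difference could be tested.

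MAP kinases (ERK, JNK and p38) are switched on when a MAP kinase kinase phosphorylates both a threonine and a tyrosine in their activation loop. A MAP kinase phosphatase removes both phosphates. Many of these phosphatase genes are themselves transcribed in response to MAP kinase signalling, so the family is known as a set of negative feedback regulators in fibroblasts and epithelial cells alike. By where the proteins act and what they prefer, the family falls into nuclear inducible enzymes (DUSP1, DUSP2, DUSP4 and DUSP5), cytoplasmic ERK-selective enzymes (DUSP6, DUSP7 and DUSP9) and enzymes selective for JNK and p38 (DUSP8, DUSP10 and DUSP16).

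The clearest difference in the family was in HCC1937, where DUSP1 RNA was 2.16-fold higher with siLARP7 than with siNC. DUSP8 came next in that line at 1.80-fold, and DUSP16 stood at 60.5% of its siNC level. In MDA-MB-231 no member differed by 1.5-fold on the scale used for calls, and DUSP1 was 1.25-fold higher with siLARP7. In MEFs the lowest log2 ratios were those of Dusp4 and Dusp5, at 65.7% and 69.0% of their wild-type levels, while Dusp1 was at 95.1%.

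The promoters of DUSP1, DUSP8 and DUSP16 are shown because these genes held the highest and the lowest ratios of the family in HCC1937, and because DUSP1 and DUSP8 carry a cyclic AMP response element (CRE, letters TGACGTCA, identical on both strands), here in capitals. Each line gives the 250 bases before the RefSeq transcript start in GRCh38.p14, on the minus strand of the chromosome and read 5′ to 3′. The windows lie at chr5:172771196-172771445 for DUSP1, chr11:1572272-1572521 for DUSP8 and chr12:12562864-12563113 for DUSP16.
DUSP1: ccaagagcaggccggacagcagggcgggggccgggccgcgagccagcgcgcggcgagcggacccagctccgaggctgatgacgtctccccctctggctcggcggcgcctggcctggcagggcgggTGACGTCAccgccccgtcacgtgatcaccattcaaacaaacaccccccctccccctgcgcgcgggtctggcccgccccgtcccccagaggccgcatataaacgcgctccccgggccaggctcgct
DUSP8: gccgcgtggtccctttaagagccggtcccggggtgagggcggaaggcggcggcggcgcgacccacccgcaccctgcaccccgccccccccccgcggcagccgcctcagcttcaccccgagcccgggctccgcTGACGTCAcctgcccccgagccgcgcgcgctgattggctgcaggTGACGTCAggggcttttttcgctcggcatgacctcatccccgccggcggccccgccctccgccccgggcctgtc
DUSP16: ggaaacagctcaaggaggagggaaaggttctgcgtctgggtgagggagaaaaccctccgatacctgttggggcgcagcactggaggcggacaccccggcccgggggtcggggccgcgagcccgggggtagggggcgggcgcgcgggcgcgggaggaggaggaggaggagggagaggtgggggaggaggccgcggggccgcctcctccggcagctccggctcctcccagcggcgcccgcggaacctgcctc
The CRE of DUSP1 begins 125 bases upstream of the start, and those of DUSP8 begin 118 and 74 bases upstream. Over windows of 300 bases, from 250 before to 50 after the start, the motif is present in 649 of 35116 RefSeq windows, or 1.85%. Windows were matched for 8 of the 10 members, and among these the letters are found in DUSP1 and DUSP8 and in none of the others, which are DUSP2, DUSP6, DUSP7, DUSP9, DUSP10 and DUSP16. A match describes the letters in the window and not a bound site. The CRE is shown out of several motifs searched in these windows. Its first letters, TGACG, were found in DUSP1, DUSP8 and DUSP10 on either strand. CACGTG (E-box) was found in DUSP1 and DUSP2, TATAAA in DUSP1, and TGACTCA (AP-1) in none. The 1.85% is a share over all windows, not over windows as GC-rich as those of DUSP1 (73.3%) and DUSP8 (78.3%). Whether any of these motifs bears on the ratios was not tested.

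Levels are in RPKM, reads scaled by gene length and by library depth, so levels of different genes can be set side by side only roughly. For 8 human members the length matched all exons of the gene together. For DUSP7 this is 5648 bases, against 3340 in its longest transcript, and for DUSP1 it is 2019 in both. Ratios are LARP7-depleted over control. Read numbers behind each value were recovered from the RPKM values, and they give the 95% Clopper-Pearson intervals of the ratios. These intervals cover counting error only and treat each read as independent. PCR copies are not independent molecules, so the intervals may be too narrow even for counting error. They do not cover the spread between cultures. The log2 ratios were taken on RPKM + 1, which understates the change of low genes. A gene was counted where it reached 1 RPKM in at least 1 library of its pair, which 9 of 10 members did in each cell type, all except DUSP2. A gene was called at a 2-fold difference, with 1.5-fold as a second threshold. Numbers and shares over all genes counted in a cell type are of entries, and some gene names were entered more than once.

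The depth was 37.3 M reads for the LARP7-/- MEFs and 36.9 M for wild-type MEFs, 53.3 M and 49.6 M for MDA-MB-231 with siLARP7 and siNC, and 50.6 M and 49.3 M for HCC1937 with siLARP7 and siNC. Larp7 stood at 5.72 RPKM in LARP7-/- MEFs and 15.2 RPKM in wild-type MEFs, so 37.6% of the wild-type level was still read from the gene. LARP7 stood at 4.51 RPKM with siLARP7 and 8.65 RPKM with siNC in MDA-MB-231, and at 2.89 RPKM with siLARP7 and 5.62 RPKM with siNC in HCC1937. In HCC1937 the ratios of all genes were shifted, with a median log2 ratio of -0.14 over the genes counted, against 0.00 in both other cell types. Scaling the HCC1937 libraries to a median ratio of 1 adds 0.13 to the log2 ratio of well-expressed genes. The fibroblast markers were all present in MEFs, with a sum of 2786 RPKM in LARP7-/- MEFs and 2888 RPKM in wild-type MEFs. KRT8 and EPCAM, epithelial genes, stood at 316 and 62.6 RPKM in HCC1937 with siLARP7 and at 302 and 67.4 RPKM with siNC. MDA-MB-231 expressed VIM, at 199 RPKM with siLARP7 and 149 RPKM with siNC, and little CDH1, at 0.503 RPKM with siLARP7 and 0.835 RPKM with siNC. Its 7 epithelial markers summed to 167 RPKM with siLARP7 and 140 RPKM with siNC, nearly all of it KRT8 and KRT18, and KRT5 and KRT14 were listed at 0.

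DUSP1 encodes a nuclear phosphatase of p38, JNK and ERK, and it is a classic immediate early gene. In HCC1937 it rose to 31.0 RPKM with siLARP7 (3164 reads), against 14.3 RPKM with siNC (1427 reads). The log2 ratio was 1.06 and the interval of the ratio ran from 2.03 to 2.30. It was the one member called at 2-fold. Across all 15797 gene entries counted in this line, 0.399% were called 2-fold higher and 1.23% 2-fold lower, so DUSP1 lay in a small tail of the distribution. The authors' deposited table gives DUSP1 a log2 change of 1.00 in HCC1937. In MDA-MB-231 the gene stood at 18.3 RPKM with siLARP7 (1973 reads) and 14.6 RPKM with siNC (1464 reads), with an interval from 1.17 to 1.34. In MEFs the level of Dusp1 was 34.1 RPKM in LARP7-/- cells (3427 reads) and 35.8 RPKM in wild-type cells (3561 reads), with an interval from 0.907 to 0.997. The controls of the 2 human lines had nearly equal DUSP1 levels, while the log2 ratio was 0.75 higher in HCC1937 than in MDA-MB-231, a difference that was not tested. An antisense entry that overlaps DUSP1, AC022217.3, reached 0.281 RPKM with siLARP7 and 0.0576 RPKM with siNC in HCC1937, far below DUSP1 itself.

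**Figure D1:**
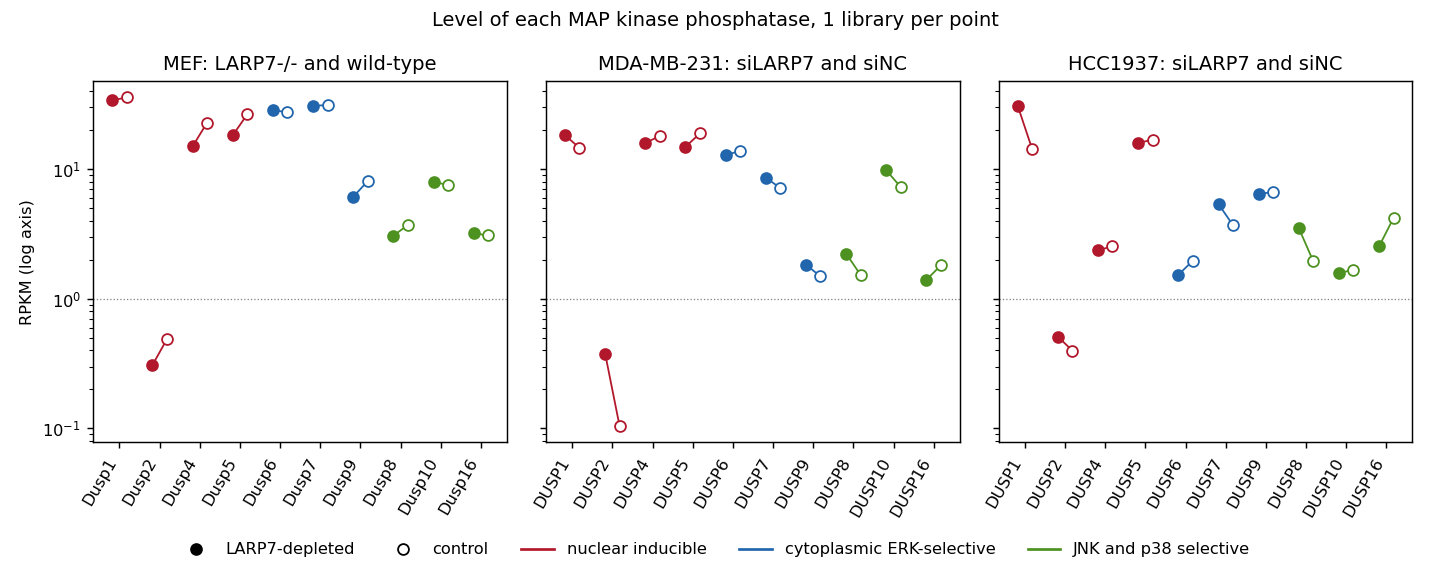
Level of each MAP kinase phosphatase in RPKM on a log axis, with filled points for the LARP7-depleted library and open points for the control library of each cell type, 1 library per point. DUSP1 in HCC1937 lies at 31.0 RPKM with siLARP7 and 14.3 RPKM with siNC, and DUSP2 is below the dotted line at 1 RPKM in every library.

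The ratio of DUSP1 in HCC1937 did not rest on few reads, but its size moved with the processing. Scaled to a median ratio of 1 its log2 ratio was 1.19, and after a fitted trend on GC content, transcript length and level was taken out it was 0.90, just under the 2-fold threshold. It was 1.05, above the threshold, when the general shift was taken out together with the trend, a setting chosen after seeing the data. That trend is part of the HCC1937 data as a whole: over 11963 protein-coding genes the log2 ratio followed the GC content of the transcript, with a Spearman correlation of 0.57 as a description across genes of 1 pair of libraries. In MDA-MB-231 the same correlation was 0.36 over 12901 genes. The GC content of DUSP1 is 55.1%, against a median of 50.6% for the genes fitted in HCC1937. In the plot of ratio against GC content, DUSP1 lies well above the median of genes with like GC content.

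**Figure D2:**
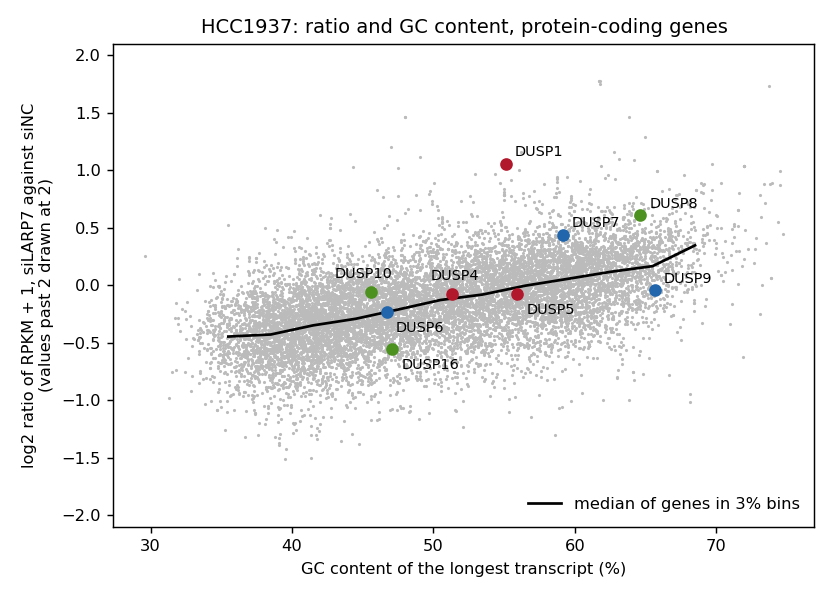
Log2 ratio of siLARP7 to siNC in HCC1937 (RPKM + 1) against GC content of the longest transcript in percent, with 1 grey point per protein-coding gene, the line giving the median in bins of GC content and coloured points the 9 members counted. DUSP1, at 1.06, lies above the line, DUSP16, at -0.56, below it, and DUSP9, at -0.04, below it at a high GC content.

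DUSP4, a nuclear phosphatase of ERK and JNK, had lower values in each depleted library as deposited, by different amounts, although in HCC1937 its direction flipped when the libraries were scaled to a common median. In MEFs it stood at 15.0 RPKM in LARP7-/- cells (1534 reads) and 22.8 RPKM in wild-type cells (2307 reads), with a log2 ratio of -0.57 and 65.7% of the wild-type level (61.6 to 70.1%). That was the largest difference of any counted member in MEFs, and it passed neither threshold on the RPKM + 1 scale. In MDA-MB-231, DUSP4 stood at 15.9 RPKM with siLARP7 and 18.1 RPKM with siNC, 88.0% of the siNC level (85.0 to 91.1%). In HCC1937 it stood at 2.36 RPKM with siLARP7 and 2.55 RPKM with siNC, and the interval of the ratio, 0.843 to 1.02, includes 1.

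DUSP5, a nuclear phosphatase that acts on ERK, followed DUSP4 closely in MEFs. Dusp5 stood at 18.3 RPKM in LARP7-/- MEFs (1686 reads) and 26.5 RPKM in wild-type MEFs (2414 reads), a log2 ratio of -0.51 and 69.0% of the wild-type level (64.8 to 73.5%). In MDA-MB-231 it stood at 14.9 RPKM with siLARP7 and 18.9 RPKM with siNC, 78.9% of the siNC level (74.4 to 83.7%). In HCC1937 the level was 16.0 RPKM with siLARP7 and 16.9 RPKM with siNC, with an interval from 0.891 to 1.005. The HCC1937 log2 ratios of DUSP4 and DUSP5, both -0.08, turned slightly positive under that median scaling, so neither has a stable direction in that line. The authors' deposited table gives log2 changes of -0.49 for Dusp4 and -0.43 for Dusp5 in MEFs.

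In MEFs, 5 leukocyte markers summed to 33.7 RPKM in LARP7-/- cells and 25.3 RPKM in wild-type cells, while Ptprc, the pan-leukocyte marker, stood at 0.0293 RPKM in LARP7-/- cells and 0.0370 RPKM in wild-type cells and Cd3e was listed at 0 in both. Of the 3 leukocyte markers that reached the level minimum, 2 macrophage genes passed 1.5-fold higher, beside 7.98% of all genes counted in MEFs. Cd68 stood at 3.62 RPKM in LARP7-/- cells and 2.05 RPKM in wild-type cells. Adgre1 stood at 1.77 RPKM in LARP7-/- cells and 0.844 RPKM in wild-type cells. The same list, with 4 markers found, summed to 40.5 RPKM with siLARP7 and 32.9 RPKM with siNC in HCC1937. In MDA-MB-231 the sums were 26.2 RPKM with siLARP7 and 29.6 RPKM with siNC. These sums rest on unlike sets of genes, as 3 markers reached the level minimum in MEFs and 1 in each human line. Whether leukocytes had a part in the Dusp4 and Dusp5 values was not tested. The passage of each MEF library is not given, so a difference in passage and the loss of LARP7 cannot be told apart. In cultures measured in bulk, fewer cells that express a gene and less RNA per cell cannot be told apart either.

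DUSP2, a nuclear phosphatase best known from immune cells, was the lowest member in all 6 libraries and passed the level minimum in none. It stood at 0.511 RPKM with siLARP7 (50 reads) and 0.399 RPKM with siNC (38 reads) in HCC1937. In MDA-MB-231 it stood at 0.378 RPKM with siLARP7 (39 reads) and 0.104 RPKM with siNC (10 reads), a ratio of 3.63 with a wide interval from 1.78 to 8.15. In MEFs the level was 0.308 RPKM in LARP7-/- cells (23 reads) and 0.487 RPKM in wild-type cells (36 reads), with an interval from 0.357 to 1.10. At so few reads only the MDA-MB-231 ratio had an interval that left out 1.

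Summed over these 4 nuclear enzymes, the levels moved apart between cell types. The sum was 49.8 RPKM with siLARP7 and 34.2 RPKM with siNC in HCC1937, 49.5 RPKM with siLARP7 and 51.7 RPKM with siNC in MDA-MB-231, and 67.6 RPKM in LARP7-/- MEFs and 85.6 RPKM in wild-type MEFs. The higher sum in HCC1937 lay in DUSP1, as DUSP4 and DUSP5 were slightly lower with siLARP7 as deposited. The median log2 ratio of the 3 nuclear enzymes counted there was -0.08. In HCC1937, DUSP1 alone made up 43.7% of the summed RPKM of all 10 members with siLARP7 and 26.4% with siNC.

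Among the cytoplasmic ERK-selective enzymes, DUSP7 had the highest log2 ratio in both human lines on the RPKM + 1 scale. By the plain RPKM ratio DUSP9 was higher than DUSP7 in MDA-MB-231, at 1.23. DUSP7 stood at 5.39 RPKM with siLARP7 (1540 reads) and 3.70 RPKM with siNC (1031 reads) in HCC1937, 1.46-fold higher (1.34 to 1.58). In MDA-MB-231 it stood at 8.62 RPKM with siLARP7 and 7.16 RPKM with siNC, 1.21-fold higher (1.14 to 1.28). In MEFs Dusp7 was close to level, at 30.8 RPKM in LARP7-/- cells and 31.3 RPKM in wild-type cells, with an interval from 0.939 to 1.03. The HCC1937 log2 ratio of DUSP7 was 0.44 as deposited, 0.56 after scaling to a median ratio of 1 and 0.33 without the trend, all short of the 1.5-fold threshold.

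DUSP6, the main cytoplasmic ERK phosphatase and a widely used readout of ERK activity, was low in HCC1937. It stood there at 1.53 RPKM with siLARP7 (359 reads) and 1.97 RPKM with siNC (450 reads), 77.7% of the siNC level (67.5 to 89.5%). In MDA-MB-231 the level was 12.9 RPKM with siLARP7 and 13.8 RPKM with siNC, 93.7% of the siNC level (89.2 to 98.4%). In MEFs Dusp6 stood at 28.6 RPKM in LARP7-/- cells and 27.5 RPKM in wild-type cells, with an interval from 0.987 to 1.09. None of these passed 1.5-fold, and the HCC1937 log2 ratio of -0.23 became -0.08 with the trend removed and 0.07 with the general shift taken out as well.

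DUSP9, an X-linked cytoplasmic phosphatase known in mice from its role in the placenta, was level in HCC1937. It stood at 6.46 RPKM with siLARP7 (908 reads) and 6.66 RPKM with siNC (912 reads), with an interval from 0.884 to 1.06. In MDA-MB-231 it stood at 1.84 RPKM with siLARP7 and 1.49 RPKM with siNC, with an interval from 1.03 to 1.49. In MEFs Dusp9 stood at 6.12 RPKM in LARP7-/- cells and 8.11 RPKM in wild-type cells, 75.5% of the wild-type level (65.0 to 87.8%). DUSP9 has the highest GC content of the 9 counted members at 65.6%, and with the trend removed its HCC1937 log2 ratio was -0.33 in place of -0.04. Summed, the 3 ERK-selective enzymes stood at 13.4 RPKM with siLARP7 and 12.3 RPKM with siNC in HCC1937, at 23.4 and 22.4 RPKM in MDA-MB-231 with siLARP7 and siNC, and at 65.5 RPKM in LARP7-/- MEFs and 67.0 RPKM in wild-type MEFs.

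**Figure D3:**
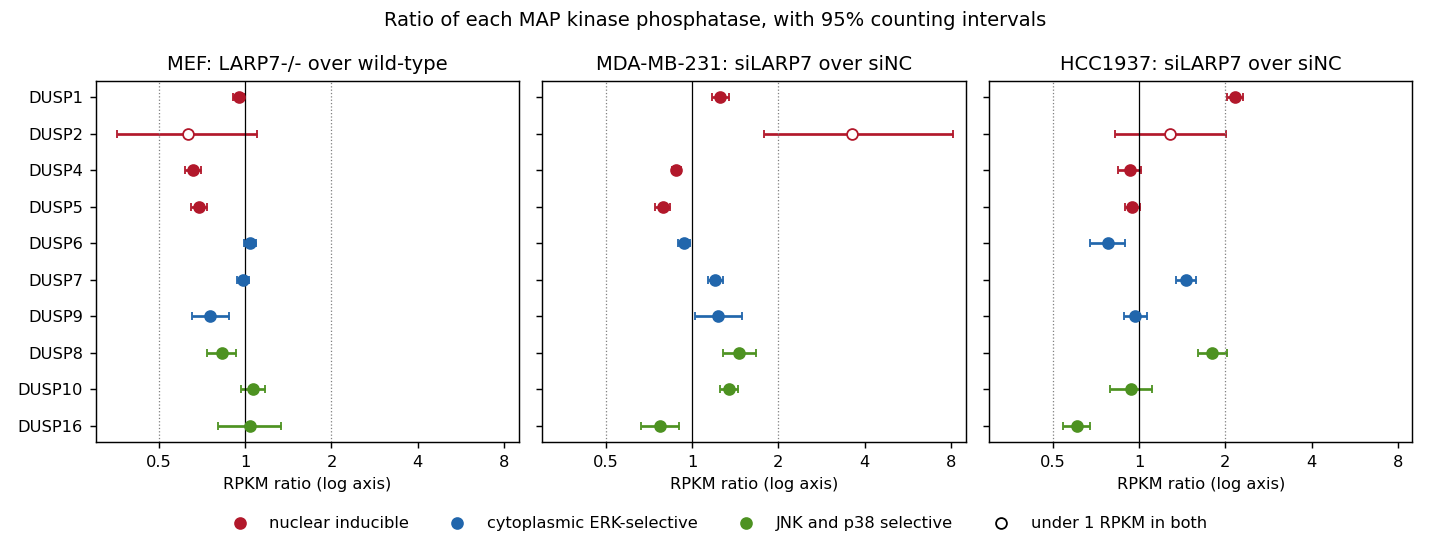
RPKM ratio of each member, LARP7-depleted over control, on a log axis, with 95% Clopper-Pearson intervals that cover counting error only and open points where both libraries are under 1 RPKM. In HCC1937 DUSP1 (2.16) and DUSP8 (1.80) lie to the right and DUSP16 (0.605) to the left, and in MEFs DUSP4 (0.657) and DUSP5 (0.690) lie to the left.

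The enzymes selective for JNK and p38 pointed in different directions in HCC1937. DUSP8, a cytoplasmic phosphatase of JNK and p38 known from brain and heart, passed 1.5-fold at 3.50 RPKM with siLARP7 (819 reads) and 1.95 RPKM with siNC (443 reads). Its log2 ratio was 0.61 and the interval of its ratio ran from 1.60 to 2.03. With DUSP1 it makes 2 of 9 members past 1.5-fold higher in HCC1937, where 2.75% of all genes counted were past that threshold higher and 10.8% lower. DUSP8 did not keep that place in every processing: with the trend removed its log2 ratio was 0.39, and the gene is GC-rich. In MDA-MB-231, DUSP8 stood at 2.23 RPKM with siLARP7 (550 reads) and 1.53 RPKM with siNC (350 reads), with an interval from 1.28 to 1.68. In MEFs Dusp8 was lower, at 3.07 RPKM in LARP7-/- cells and 3.71 RPKM in wild-type cells, 82.7% of the wild-type level (73.8 to 92.7%). Pseudogene copies of DUSP8 may share its reads, which makes its values uncertain: DUSP8P5 stood at 0.577 RPKM with siLARP7 and 0.380 RPKM with siNC in HCC1937, and at 1.60 RPKM with siLARP7 and 1.04 RPKM with siNC in MDA-MB-231.

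DUSP16, a phosphatase that shuttles between nucleus and cytoplasm and prefers JNK, was the lowest member by ratio in HCC1937. It stood at 2.55 RPKM with siLARP7 (522 reads) and 4.22 RPKM with siNC (841 reads), 60.5% of the siNC level (54.1 to 67.5%). On the RPKM + 1 scale the log2 ratio was -0.56, short of 1.5-fold, so 0 of 9 members were called lower in that line by either threshold. In MDA-MB-231 it stood at 1.40 RPKM with siLARP7 and 1.82 RPKM with siNC, 77.2% of the siNC level (66.0 to 90.1%). In MEFs Dusp16 was level within counting error, at 3.20 RPKM in LARP7-/- cells and 3.09 RPKM in wild-type cells, with an interval from 0.806 to 1.33. After scaling to a median ratio of 1 the HCC1937 log2 ratio was -0.46, and with the trend removed it was -0.40.

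DUSP10, a phosphatase of p38 and JNK, had the largest log2 ratio of the counted members in MDA-MB-231 on the RPKM + 1 scale, while by the plain RPKM ratio DUSP8 was larger. It stood there at 9.80 RPKM with siLARP7 (1815 reads) and 7.28 RPKM with siNC (1255 reads), a log2 ratio of 0.38 and an interval from 1.25 to 1.45. In HCC1937 it stood at 1.58 RPKM with siLARP7 and 1.68 RPKM with siNC, with an interval from 0.792 to 1.11. In MEFs Dusp10 stood at 8.03 RPKM in LARP7-/- cells and 7.53 RPKM in wild-type cells, with an interval from 0.969 to 1.17. The sum of DUSP8, DUSP10 and DUSP16 was 13.4 RPKM with siLARP7 and 10.6 RPKM with siNC in MDA-MB-231, whereas it was 7.63 and 7.85 RPKM in HCC1937 with siLARP7 and siNC and 14.3 RPKM in both MEF libraries.

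Read against all genes, the members' counts in MEFs and MDA-MB-231 were 0 in both directions at both thresholds. In MEFs 2.40% of 14479 gene entries were 2-fold higher and 0.884% 2-fold lower in LARP7-/- cells. There 7.98% were past 1.5-fold higher and 4.02% past 1.5-fold lower. In MDA-MB-231, 0.501% of 17575 gene entries were 2-fold higher and 0.740% 2-fold lower with siLARP7, and 2.88% were past 1.5-fold higher and 4.03% lower. With 9 genes counted, none called is close to these shares. The median log2 ratio of the members was -0.07 in MEFs, 0.19 in MDA-MB-231 and -0.06 in HCC1937, beside 0.00, 0.00 and -0.14 over all genes counted. By counting error alone, the interval of the ratio lay above 1 for 6 members and below 1 for 4 in MDA-MB-231, above 1 for 3, below for 2 and across 1 for 5 in HCC1937, and below 1 for 5 and across 1 for 5 in MEFs.

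**Figure D4:**
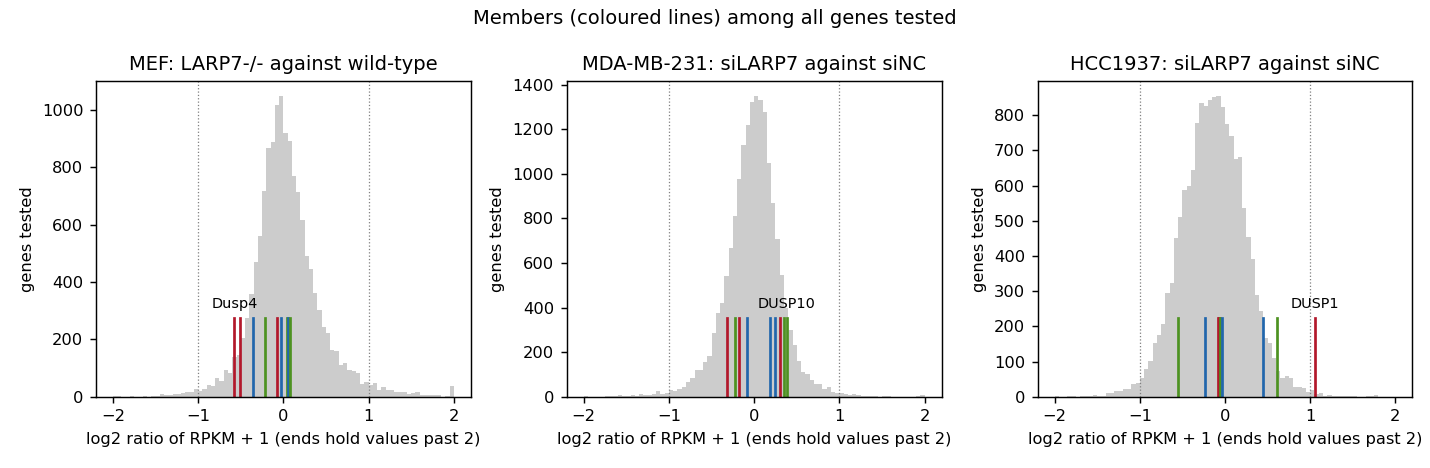
Histograms of the log2 ratio (RPKM + 1) of all genes counted in each cell type, LARP7-depleted against control, with the members as coloured lines and dotted lines at a 2-fold difference. DUSP1 in HCC1937 (1.06) is the one member past a dotted line, and the labelled Dusp4 in MEFs (-0.57) and DUSP10 in MDA-MB-231 (0.38) lie inside.

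The order of the members within a library differed between cell types. In MEFs Dusp1, Dusp7 and Dusp6 led in both libraries. Neighbours whose counting intervals overlapped were Dusp16 and Dusp8 in LARP7-/- cells, and Dusp6 and Dusp5, Dusp9 and Dusp10, and Dusp8 and Dusp16 in wild-type cells. In MDA-MB-231 DUSP1, DUSP4 and DUSP5 led with siLARP7, where the intervals of DUSP4 and DUSP5 overlapped, as did those of DUSP8 and DUSP9. With siNC the order was led by DUSP5, DUSP4 and DUSP1, and the intervals of DUSP5 and DUSP4, of DUSP1 and DUSP6, of DUSP10 and DUSP7, and of DUSP16, DUSP8 and DUSP9 in turn overlapped. In HCC1937 DUSP1 led with siLARP7, followed by DUSP5, whereas DUSP5 led with siNC, followed by DUSP1, and in neither library did the intervals of this pair overlap. Further down, DUSP16 and DUSP4, and DUSP10 and DUSP6, overlapped with siLARP7, and DUSP6, DUSP8 and DUSP10 in turn with siNC. DUSP2 came last throughout. These orders rest on the gene lengths used, which the intervals do not cover.

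The siNC libraries of the human lines also differed in which enzymes they expressed. DUSP4 and DUSP6 were 7.09-fold and 7.00-fold lower in HCC1937 than in MDA-MB-231 and DUSP10 was 4.33-fold lower, while DUSP9 was 4.47-fold and DUSP16 2.32-fold higher in HCC1937. DUSP1 and DUSP5 were at nearly equal levels in both, at 14.3 and 16.9 RPKM in HCC1937 and 14.6 and 18.9 RPKM in MDA-MB-231. These are differences between single libraries of lines grown in different media.

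Genes were then ranked by how near their 3 log2 ratios lay to those of the leading member of each comparison, over 8281 genes counted in all 3 cell types. Nearest to DUSP1 were SAMD1 at a distance of 0.055, IER5 at 0.246 and BRD2 at 0.299. SAMD1 had log2 ratios of -0.05 in MEFs, 0.35 in MDA-MB-231 and 1.09 in HCC1937, and IER5, an immediate early gene, -0.08, 0.35 and 0.82. Nearest to DUSP10 were MAP3K6, SLC6A8 and ETS2, and nearest to DUSP4 were H2AFY2, RAN and FDPS, all within 0.0812. The likeness is over 3 ratios only. These ratios were used without removal of the trend on GC content, and whether that trend has a part in the likeness was not tested.

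The rest of the MAP kinase pathway was described from lists of its known parts. In HCC1937 the immediate early genes, the class to which DUSP1 also belongs, had a median of 0.40 on the log2 ratio over 13 genes counted, with 3 past 1.5-fold higher and none lower, beside 2.75% past 1.5-fold higher over all genes counted. JUND, an AP-1 subunit, rose to 102 RPKM with siLARP7, against 48.6 RPKM with siNC, a log2 ratio of 1.06. JUNB stood at 221 RPKM with siLARP7 and 139 RPKM with siNC (log2 ratio 0.67), and FOS at 4.09 RPKM with siLARP7 and 2.31 RPKM with siNC (0.62). JUND and JUNB are GC-rich, and with the trend removed their log2 ratios were 0.44 and 0.11, while that of FOS was 0.64. In MDA-MB-231 the same list had a median of 0.29 over 12 genes with 2 past 1.5-fold higher, FOS (0.76) and ZFP36 (0.63), which encodes an RNA decay factor. In MEFs the median was -0.04 over 15 genes, with 1 past 1.5-fold lower, Egr2 (-0.65).

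The kinases upstream did not share a direction in HCC1937 by the values as deposited. List medians were not taken with the trend removed. The 6 MAP kinase kinases counted had a median log2 ratio of 0.18. MAP3K and RAF kinases were at a median of -0.24 there (log2 ratio, 18 genes), with 3 past 1.5-fold lower and none higher, beside a median of -0.14 and 10.8% past 1.5-fold lower over all genes counted. TAOK1 fell to 2.27 RPKM with siLARP7, against 5.74 RPKM with siNC (log2 ratio -1.04), and MAP3K7, which encodes the kinase TAK1, stood at 2.53 RPKM with siLARP7 and 4.69 RPKM with siNC (-0.69). With the trend removed these ratios were -0.74 and -0.39. MAP2K4, a kinase that activates JNK, stood at 0.909 RPKM with siLARP7 and 2.38 RPKM with siNC (-0.83), and it was the only gene past 1.5-fold of the MAP kinase kinases counted. The 11 MAP kinases counted had a median log2 ratio of -0.20, and 1 was past 1.5-fold lower, MAPK6 (-0.62). In MDA-MB-231 and MEFs no gene of these 3 lists passed 1.5-fold.

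ERK output genes and the Sprouty and SPRED inhibitors show how far other feedback genes of the pathway moved. ERK output genes had medians of 0.01 in HCC1937 (6 genes), -0.22 in MDA-MB-231 (7 genes) and 0.11 in MEFs (7 genes). Over the 3 cell types 1 gene of this list passed 1.5-fold, Ier3 in MEFs, at 208 RPKM in LARP7-/- cells and 124 RPKM in wild-type cells (log2 ratio 0.73). Sprouty and SPRED genes had medians of -0.40 (4 genes), -0.03 (5 genes) and 0.14 (6 genes) in HCC1937, MDA-MB-231 and MEFs, with none past 1.5-fold. The atypical dual-specificity phosphatases, which lack the MAP kinase docking domain, had medians of -0.12 (9 genes), -0.09 (10 genes) and -0.04 (10 genes) in the same order, also with none past 1.5-fold. Over all genes counted the medians were -0.14 in HCC1937, 0.00 in MDA-MB-231 and 0.00 in MEFs. The tyrosine phosphatases that dock on MAP kinases, PTPN5, PTPN7 and PTPRR, were below the level minimum in every cell type.

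**Figure D5:**
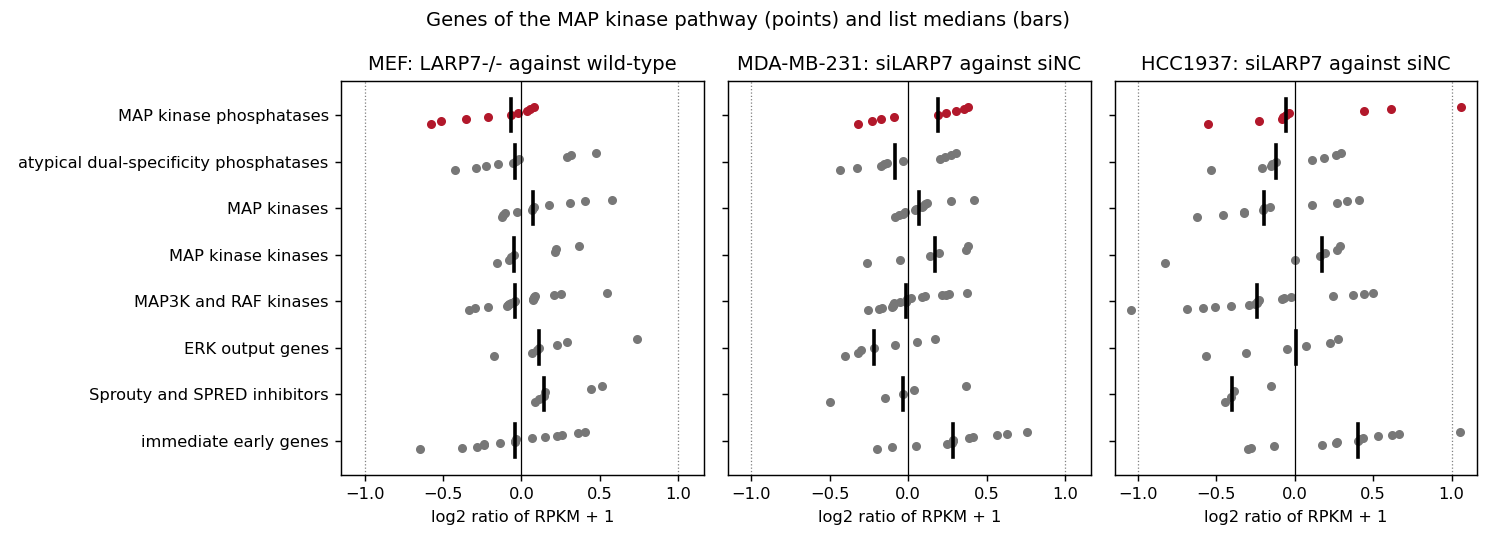
Log2 ratio (RPKM + 1), LARP7-depleted against control, of each gene counted in the MAP kinase phosphatases (red) and in 7 other lists (grey) in each cell type, with black bars at the list medians and dotted lines at a 2-fold difference. In HCC1937 DUSP1 and JUND (both 1.06) lie past the right line and TAOK1 (-1.04) past the left, and the immediate early genes have a median of 0.40.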

How the data were processed

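Per the file headers, the values the authors deposited are RPKM for each gene in each library, with a GFOLD log2 change (setting 0.01) that is quoted only as theirs. The submitters' processing notes name cutadapt, FastQC, STAR and GRCh37 without versions. The MEF labels name human as the organism, but the MEF table holds mouse gene IDs, and its genome build, strandedness and poly(A) selection are not stated. In each human table, 47 pseudoautosomal Y entries were left out.

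Depth was recovered from single-exon genes (human) or short genes (MEFs). A member's reads follow from the smallest gene length that gives whole reads in every library of its species, found for all 10 members. It equals the GENCODE 29 exon length for 8 human members (not DUSP10 and DUSP16). True reads may be a multiple, above all for Dusp9 and Dusp16 in MEFs, with narrower intervals.

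The trend is a polynomial of degree 3 on GC content, log2 length and level over protein-coding genes, with the mean added back. The members and lists were chosen with earlier results of these data known. Named are all members, LARP7, list genes called at 2-fold or among the 2 highest and 2 lowest of a list, and the nearest genes. Genes outside that rule were chosen by the 1.5-fold threshold or as markers and copies. The steps were tested on simulated data, with Python 3.11.15, pandas 2.3.3, numpy 2.4.6, scipy 1.17.1 and matplotlib 3.10.9.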

Additional observations from a re-analysis of the deposited data

How the results depend on the processing

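With 1 library per group no replicate could be left out. No paired analysis was possible because each group holds a single library. In MEFs 1 member, Dusp4, passed 1.5-fold lower at a pseudocount of 0.1 and at 0.01. In HCC1937 1 member, DUSP16, did so at both pseudocounts. DUSP1 in HCC1937 ranged from 0.90 to 1.20 over all settings. The members called at 2-fold there were 0 once the trend on GC, length and level was taken out, and 1 (DUSP1, 1.05) with the mean log2 ratio not added back, a setting chosen after seeing the data. With the mean added back 1 member was past 1.5-fold higher, as was 1 with the mean not added back and 1 at a level minimum of 5 RPKM. The HCC1937 median over members was 0.20 at that minimum, where 4 members are left, and 0.15 with the mean not added back. The MDA-MB-231 median was 0.0755 at a minimum of 5 RPKM (6 members), 0.0243 with the trend removed and 0.0536 with the mean not added back. It was 0 for the GFOLD log2 changes of the authors' deposited table, a different measure, which lists DUSP9 at exactly 0 in that line. The cause of these shifts was not tested, and at 5 RPKM fewer members are left. No value called changed sign. No mouse transcript sequences were used, so the MEF values went without trend removal. Depth limited DUSP2 most, at 10 to 50 reads per library.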
